A study of Drosophila melanogaster with 6 samples.

Results

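The genes described here are 10 regulators of egg activation and of the maternally supplied cell cycle in Drosophila melanogaster: png, plu, gnu, cort, CycA, CycB, CycB3, CycE, stg and twe. They were chosen by name, with earlier results of these data known. A gene was measured where a probe set of the array names it and no other gene. This gave 8 probe sets for 8 of the 10 genes, of 18769 probe sets in all, and 11982 genes in all are named in this way. No probe set names CycA or stg alone or with other genes, so no value is given for this pair. Expression was measured in whole adult flies of Canton-S, a wild type laboratory strain from North America, and of D18, a wild type strain collected in the Moscow region of Russia and also called Domodedovo 18. Each strain had 3 biological repeats with 1 array each, made from pooled flies that the labels give as 3 days old, kept at 25 °C without any treatment, with 250 ng of total RNA labelled per array. Both strains are inbred laboratory lines, so each stands for 1 genotype.

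A mature Drosophila oocyte is arrested in meiosis and carries the RNA and protein that drive the first embryonic divisions before the zygotic genome is read. Passage through the oviduct activates the egg, which then completes meiosis, changes the translation of its stored RNAs and starts rapid cycles of replication and mitosis without growth. The PNG kinase, cyclins, the anaphase-promoting complex (APC/C), a ubiquitin ligase that marks cyclins for destruction, and the Cdc25 phosphatases are the switches of this sequence, and their RNAs are loaded into the oocyte by the ovary.

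The arrays of a strain were not alike. Canton-S replicate 3 and D18 replicate 2, called here the pair, correlated at 0.973 with each other over all probe sets (probe sets are no replicates of an array), and at 0.716 to 0.762 with the other 4 arrays, which correlated at 0.964 to 0.982. On the pair the median log2 signal of 10 ovary genes was 2.83 and 2.70 and that of 13 yolk and eggshell genes 4.35 and 3.91, against 9.42 to 10.34 and 11.66 to 13.05 on the other 4. The medians of 11 genes of the male accessory gland were 11.40 and 11.17 on the pair and 2.28 to 2.67 on the others, those of 10 testis genes 11.10 and 11.18 against 2.64 to 2.90, and those of 6 Y-linked genes 4.29 and 4.24 against 1.58 to 1.72. Not every gene of these lists followed its median. Of the ovary genes exu alone was not lower on the pair by its brightest probe set, at 10.78 and 10.9 against 9.87 to 11.23. Its other probe set was higher on the pair, at 11.74 and 12.12. The ovary gene grk was only a little lower there, at 6.82 and 6.72 against 7.52 to 7.96. Of the accessory gland genes Acp95EF alone overlapped, at 4.19 and 4.17 against 4.01 to 4.29. The Y-linked gene kl-2 was higher on the pair only by the brightest of its 3 probe sets. Its others were at 1.14 to 1.83 on all arrays. The labels give no sex, and the methods give flies of both sexes. Because the pair was set apart by expression, with ovary genes among the values that did so, differences between the pair and the other arrays are given as a description without a test.

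All 8 genes were lower on both arrays of the pair than on each of the other 4 arrays. The same holds for 47.3% of all probe sets, and for 65.8% once all arrays had been given a common median, so the count alone is not a result about these genes. The gap varied widely in size. The lowest of the 4 arrays stood at least 8-fold above the highest of the pair for 5 of the 8 genes (gnu, CycB, plu, CycE and cort), and for 1.06% of all probe sets. At a gap of at least 2-fold it was 7 of the 8, and 9.22% of all probe sets. Probe sets of low signal on all arrays cannot show such gaps. Ovary genes were among the values that set the pair apart, and the ovary supplies these RNAs, so the shares are a description only. In RNA of whole flies, fewer cells of a type and less RNA per cell cannot be told apart.

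**Figure D1:**
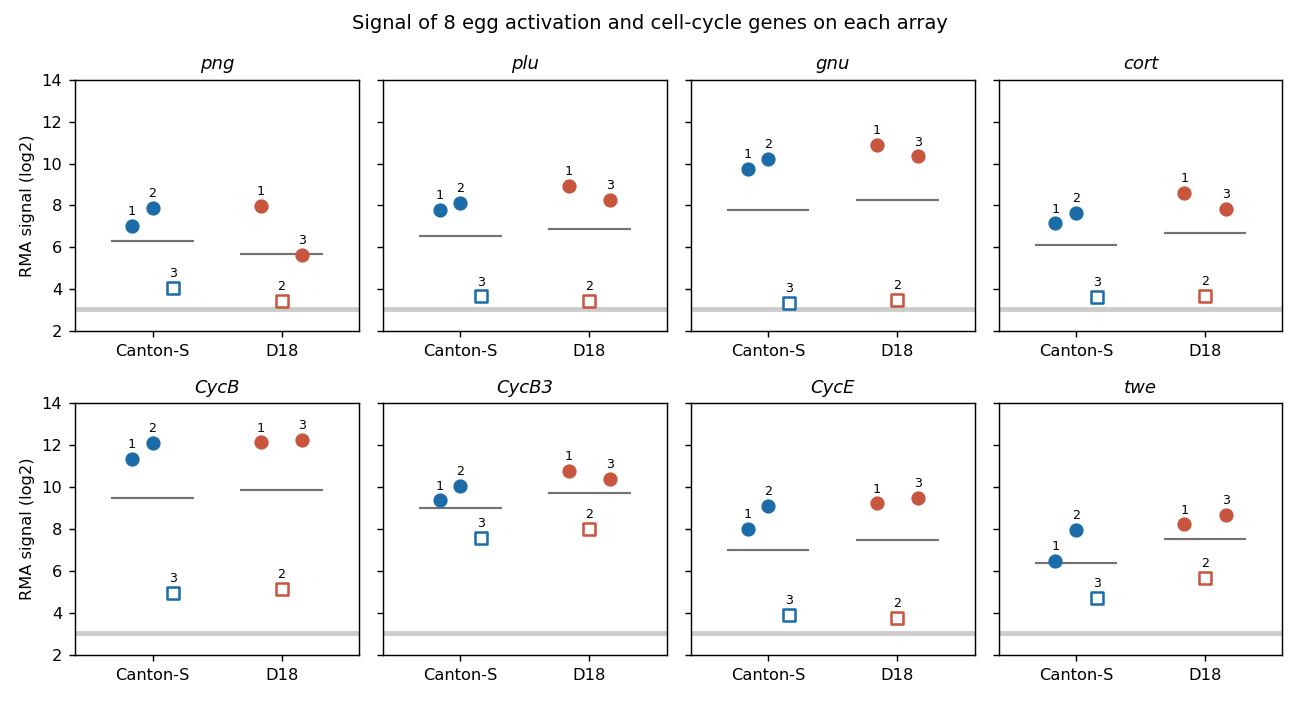
RMA signal on a log2 scale (vertical axis) of the 8 genes on each array, by strain. Filled circles are the 4 arrays, open squares are Canton-S replicate 3 and D18 replicate 2, digits are replicate numbers, horizontal lines are strain means (n = 3) and the grey band spans the lower quartiles of the arrays, 2.96 to 3.09. The open squares lie below every filled circle in each panel, by 6.24 for gnu and by 0.80 for twe.

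The 3 genes of the PNG kinase differed in how far they stood from the pair. The gene gnu (CG5272, chromosome arm 3L of the Release 6 assembly) encodes the subunit that activates the kinase at egg activation. Its log2 signal was 9.75, 10.24 and 3.35 on Canton-S replicates 1, 2 and 3, and 10.88, 3.51 and 10.34 on D18 replicates 1, 2 and 3. The pair lay 0.39 and 0.50 above the lower quartile of its array, and the lowest of the other 4 arrays was 75.5-fold above the brighter of the pair, so this fold rests on the lower bound of the signal. The gene plu (CG9183, chromosome arm 2R), which encodes a small ankyrin repeat protein of the same complex, gave 7.79, 8.13 and 3.66 in Canton-S and 8.92, 3.45 and 8.26 in D18. Here the gap was 17.5-fold, again with the pair close to the lower quartile. The catalytic subunit, the serine/threonine kinase png (CG11420, chromosome X), gave 7.03, 7.88 and 4.05 in Canton-S and 7.99, 3.44 and 5.64 in D18. D18 replicate 3 was the dimmest of the 4 arrays for png, with the other 3 between 7.03 and 7.99, and the gap to the pair was only 3.01-fold. For gnu and plu the same array was above both Canton-S arrays of the 4.

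The gene cort (CG11330, chromosome arm 2L) encodes an activator of the APC/C of the Fizzy family that works in the female germline and is needed to finish meiosis. It gave 7.14, 7.64 and 3.62 in Canton-S and 8.60, 3.67 and 7.85 in D18. Each array of the pair was 0.66 above its lower quartile, and the lowest of the other 4 was 11.1-fold above them. The relative fzr2, an APC/C activator of the testis, ran the other way, with 8.03 and 8.33 on the pair and 3.51 to 3.75 on the other 4 arrays. Between fizzy and fizzy-related, the activators of general use, the gaps were smaller. By the brightest of its 3 probe sets fzy gave 7.97 to 9.38 on the 4 arrays and 6.54 and 6.74 on the pair, and fzr 8.39 to 9.06 and 7.38 and 7.36. The other fzy sets were dim and overlapped, at 3.17 to 3.33 against 2.91 and 3.28 and at 3.33 to 3.73 against 3.39 and 3.51. Both genes were named after their values were seen.

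The 3 measured cyclins differed in how much signal was left on the pair. CycB (CG3510, chromosome arm 2R), a mitotic cyclin and partner of Cdk1 whose stored RNA is translated under the control of the PNG kinase, gave 11.37, 12.12 and 4.97 in Canton-S and 12.14, 5.14 and 12.27 in D18. The lowest of the 4 arrays was 75.2-fold above the pair, although CycB stayed 2.02 and 2.12 above the lower quartile there. CycE (CG3938, chromosome arm 2L), the partner of Cdk2 at the entry into S phase, gave 8.02, 9.12 and 3.92 in Canton-S and 9.23, 3.76 and 9.51 in D18, with a gap of 17.2-fold. Its probe set carries the suffix that Affymetrix gives to sets that can match more than 1 transcript, also of other genes, and the annotation names CycE alone. The same suffix is on sets read here for fzr, bol, exu, smg, CanA-14F, Cdk2, Cdk4, lok, endos, tws, kl-2 and Marf1. It is also on the sets by which CycD, ago, grp and BicC were counted, so the same limit holds for all of these. CycB3 (CG5814, chromosome arm 3R), a B-type cyclin that acts in anaphase and in female meiosis, gave 9.37, 10.06 and 7.60 in Canton-S and 10.77, 8.02 and 10.41 in D18. On the pair CycB3 was still 4.64 and 5.01 above the lower quartile, and the gap was 2.54-fold.

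The Cdc25 phosphatase twe (CG4965, chromosome arm 2L) removes the inhibitory phosphates from Cdk1 and is required for meiosis in both sexes. Its signal was 6.50, 7.96 and 4.71 in Canton-S and 8.23, 5.69 and 8.70 in D18. This was the narrowest gap of the 8 genes, 1.75-fold between Canton-S replicate 1 and D18 replicate 2, and the pair was 1.75 and 2.68 above the lower quartile. CycB3, CycB and twe were at least 1.75 above the lower quartile on both arrays of the pair, while gnu, plu, cort, CycE and png were within 1.09 of it. The gene bol, which encodes an RNA-binding protein needed for the translation of twe in spermatocytes, has 3 probe sets that did not move alike. The brightest was at 10.52 and 10.41 on the pair and at 5.42 to 6.14 on the 4, while another was at 6.60 and 6.0 on the pair and at 6.61 to 7.84 on the 4, and the last was at 1.78 to 2.32 on all 6 arrays. For Rbp4, an RNA-binding protein that represses CycB in spermatocytes, the values were 7.09 and 7.15 against 4.17 to 4.59.

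None of the 8 genes passed the test between the strains. The strains were set against each other in limma over all 18769 probe sets, with strain as the only factor, at the thresholds of the methods (over 2-fold with an unadjusted p under 0.01) and at an adjusted p under 0.05. At the former 239 probe sets passed (1.27%) and at the latter 7 (0.0373%). Of the 8 genes 0 passed either, 0 had an unadjusted p under 0.05 in limma, where 4.2% of all probe sets did, or in a linear model without moderation, where 4.69% did, and all had an adjusted p = 1.0 from limma. The widest difference was that of twe, whose mean was 6.39 ± 1.63 for Canton-S against 7.54 ± 1.62 for D18 (SD, n = 3). Its signal was 2.22-fold lower in Canton-S (unadjusted p of 0.354 in limma). For gnu the means were 7.78 ± 3.85 and 8.24 ± 4.11 (SD, n = 3), and for CycB 9.49 ± 3.93 and 9.85 ± 4.08 (SD, n = 3). The median residual SD of the 8 genes was 2.59, against 0.43 over all probe sets, and 0.43 against 0.23 with a term that sets the pair apart.

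With such a spread only very wide strain differences could have been seen. The 95% interval of the difference, Canton-S minus D18 on the log2 scale, ran from -7.37 to 6.44 for gnu, from -7.31 to 6.59 for CycB and from -3.16 to 1.72 for CycB3, the narrowest of the 8. Leaving out 1 array changed the sign of several differences. Without Canton-S replicate 3 or without D18 replicate 1 this happened for 5 of the 8 genes, without D18 replicate 3 for 4, and without Canton-S replicate 2 or D18 replicate 2 for png. With 3 arrays a strain the smallest two-sided p of an exact permutation test is 0.10, and this test gave 0.5 for gnu, cort, CycB, CycB3 and twe, 0.7 for plu and CycE and 0.8 for png.

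**Figure D2:**
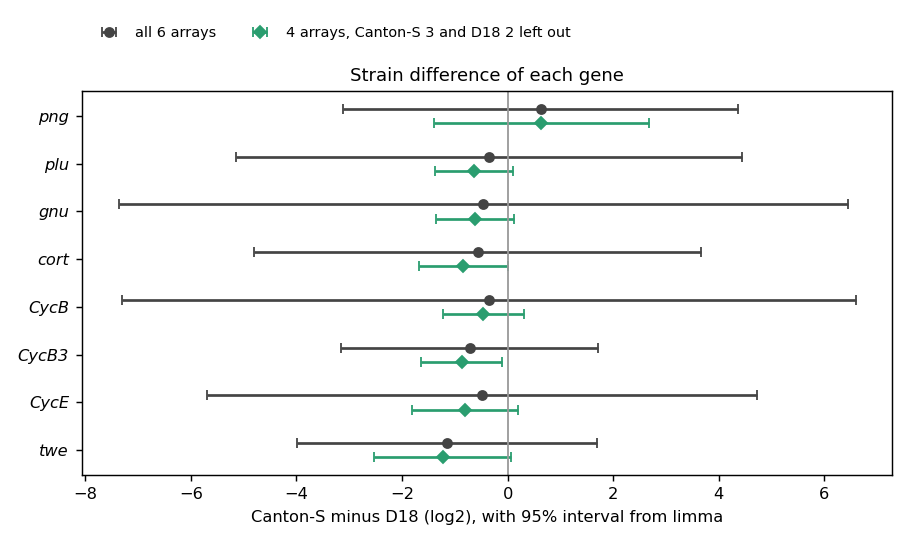
Difference between the strains, Canton-S minus D18 on the log2 scale (horizontal axis), for each gene with its 95% interval from limma. Grey circles use all 6 arrays and green diamonds the 4 arrays without Canton-S replicate 3 and D18 replicate 2. All intervals over 6 arrays span 0, while over 4 arrays that of CycB3, from -1.64 to -0.10, does not.

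Without the pair, 7 of the 8 genes were higher in D18, as were 58.4% of all probe sets, and png was the exception. Each strain then has 2 arrays, and for plu, gnu, cort, CycB, CycB3, CycE and twe both D18 arrays lay above both Canton-S arrays. The share of all probe sets with this order was 26.8%, and 52.1% once all arrays had been given a common median. Some margins between Canton-S replicate 2 and the dimmer D18 array were narrow. They were 12.12 against 12.14 for CycB, 10.24 against 10.34 for gnu, 9.12 against 9.23 for CycE and 8.13 against 8.26 for plu. For cort, CycB3 and twe the margins were wider. The largest difference was again in twe, 2.35-fold lower in Canton-S with a standard error of 0.51 on the log2 scale (unadjusted p of 0.0585 in limma). CycB3 was 1.83-fold lower (standard error 0.30) and was the only gene of the 8 at an unadjusted p under 0.05 in this fit, where 10.9% of all probe sets were. For CycB3 this unadjusted p was 0.033 and the adjusted p from limma 0.423. For cort the difference was 1.78-fold, for CycE 1.75-fold, for plu 1.55-fold, for gnu 1.53-fold and for CycB 1.38-fold. At the thresholds of the methods 0 of the 8 passed, while 514 of all probe sets did (2.74%), and at an adjusted p under 0.05 again 0 of the 8 and 0.309% of all. The median difference of the 8 genes was -0.72, against -0.07 over all probe sets. With the pair kept and set apart by a term of its own, CycB3 and twe had unadjusted p of 0.0254 and 0.0259 (adjusted p = 0.337 and 0.341 from limma), the others had an unadjusted p of 0.0931 or more, and no gene passed, where 2.38% of all probe sets did (11.9% at an unadjusted p under 0.05).

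The pair itself gives 1 array per strain and no test. There twe was 0.98 lower and CycB3 0.42 lower on Canton-S replicate 3 than on D18 replicate 2, while png was 0.61 higher. The other 5 genes were within 0.21 of each other.

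Canton-S replicate 1 was the lowest of the 4 for 7 of the 8 genes, as for 37.1% of all probe sets (56.8% after a shift to a common median). On it twe stood 1.35 and CycE 0.95 below the mean of the 4 arrays, while on Canton-S replicate 2 these genes were 0.12 and 0.15 above it. D18 replicate 1 was the highest for png, plu, gnu, cort and CycB3, and D18 replicate 3 for CycB, CycE and twe. Markers of several tissues also differed between these arrays. The median of 10 ovary genes was 9.42 on Canton-S replicate 1 and 10.27, 10.34 and 10.32 on Canton-S replicate 2 and D18 replicates 1 and 3. On these arrays 9 of the 10 were lower in Canton-S, where 58.4% of all probe sets were. The log2 of their summed signal was 13.06 on Canton-S replicate 1 and 13.78 to 13.94 on the others of the 4. On the pair this sum was 11.05 and 11.16, most of it from exu, at 10.78 and 10.9 there, while the medians of the 10 genes were 2.83 and 2.70. For 13 genes of yolk and eggshell the medians were 11.66 and 11.95 in Canton-S and 13.05 and 12.73 in D18, with all 13 lower in Canton-S, beside the same share. The medians of 4 muscle genes were 11.97 and 6.14 on Canton-S replicates 1 and 2, 10.88 and 8.99 on D18 replicates 1 and 3, and 8.48 and 11.40 on the pair, which follows neither strain nor the pair. Those of 5 neuron genes were 7.58, 7.05, 6.02 and 7.55 on the 4 arrays in the same order, and those of 2 photoreceptor genes 10.17, 10.18, 9.10 and 9.77. By their brightest probe sets all of these neuron and photoreceptor genes were higher on the pair, with medians of 7.92 and 8.45 and of 11.02 and 10.78. The same held for 17.4% of all probe sets as deposited and 12.9% with a common median. Another brp probe set was also higher on the pair, at 4.56 and 6.12 against 2.17 to 2.87. The last ones were lower there, at 2.11 and 2.21 against 2.59 to 2.83 and at 2.83 and 2.68 against 2.87 to 3.26. The part of these markers in the differences of the 8 genes was not tested.

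**Figure D3:**
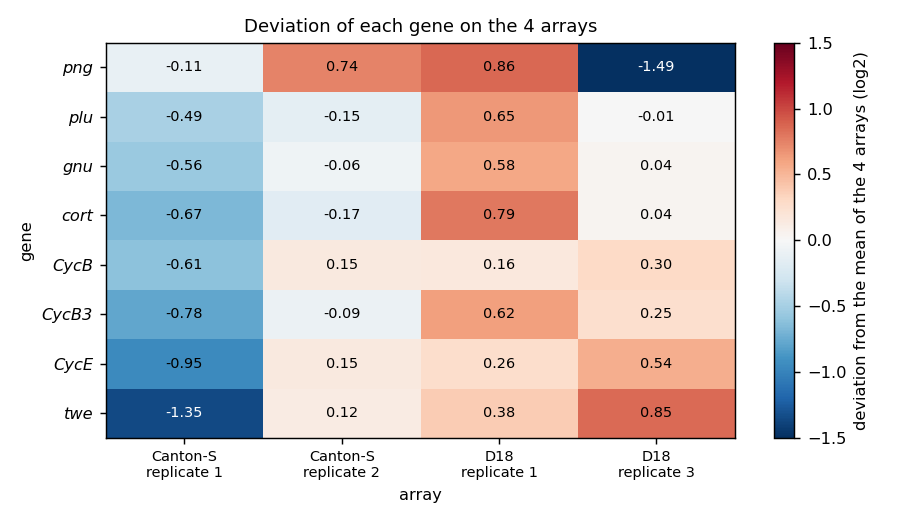
Deviation of each gene (rows) from its own mean over the 4 arrays without Canton-S replicate 3 and D18 replicate 2 (columns), in log2 units, printed and coloured. Canton-S replicate 1 is below the mean for all 8 genes, from -0.11 for png to -1.35 for twe, and png stands out on D18 replicate 3 at -1.49.

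Other genes of the same pathways were read from a list of 78, of which 64 had a probe set of their own. None of the 64 passed either threshold between the strains. An unadjusted p under 0.05 was reached by 0 of them in limma and without moderation, beside 4.2% and 4.69% of all probe sets. Without the pair 4 had an unadjusted p under 0.05 in limma (10.9% of all probe sets). With a block for the pair 3 did (11.9%), and none passed the thresholds in these fits. The median strain difference of the 64 was -0.25 over 6 arrays and -0.38 without the pair. On the 4 arrays, 25 of the 64 had both D18 arrays above both Canton-S arrays, beside 26.8% of all probe sets as deposited and 52.1% with a common median. Against the pair, 46 were higher on the 4 arrays (47.3% of all probe sets were as deposited, and 65.8% with a common median), 10 were higher on the pair (17.4% and 12.9%) and 8 overlapped. The list was counted on the deposited values only, so the shares as deposited are those of the same setting. The counts of single groups are small, and all of these counts are given as a description.

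Among genes of egg activation and the early embryo, 10 of 12 were higher on each of the 4 arrays than on the pair, beside 47.3% of all probe sets as deposited and 65.8% with a common median. The widest gap was in dhd, the germline thioredoxin deadhead, with 12.21 to 13.01 on the 4 and 5.37 and 4.55 on the pair. It was followed by wisp, the poly(A) polymerase that lengthens the tails of maternal RNAs, at 9.89 to 10.79 against 4.84 and 4.52, and by fs(1)Ya, a nuclear envelope protein of the first embryonic division, at 9.01 to 9.98 against 4.14 and 4.19. CanA-14F, a catalytic subunit of the phosphatase calcineurin, was higher on the pair by the brighter of its 2 probe sets, at 7.40 and 7.88 against 6.37 to 7.17, while the other overlapped, at 5.82 and 7.16 against 6.67 to 7.59. The translational repressor smg, whose RNA is a target of the PNG kinase and which was named after its values were seen, was at 10.41 to 11.42 against 6.84 and 6.41.

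In the group of Cdk subunits, inhibitors and kinases 8 of 10 were higher on the 4 arrays, again beside 47.3% and 65.8% of all probe sets. CycJ, a cyclin of the female germline, was at 7.89 to 8.20 against 2.98 and 3.66, Cdk2, the partner of CycE, at 8.34 to 9.53 against 4.75 and 4.71, and Cdk4 at 8.55 to 8.82 against 5.39 and 5.02. The inhibitor rux stood 0.03 higher on the pair. Of the kinases and chromosome regulators of mitosis and meiosis 8 of 11 were higher on the 4, beside 47.3% of all probe sets as deposited and 65.8% with a common median. These were led by mtrm, an inhibitor of Polo kinase in the oocyte (9.78 to 10.98 against 4.24 and 3.85), the Greatwall kinase gwl (8.42 to 9.38 against 4.84 and 4.71) and the separase Sse (6.32 to 8.09 against 3.18 and 3.08).

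All 10 measured genes of S-phase entry and checkpoints were higher on the 4 arrays, where 47.3% of all probe sets were as deposited and 65.8% with a common median. The checkpoint kinase lok was at 9.84 to 10.59 against 5.39 and 4.98, the retinoblastoma relative Rbf2 at 6.99 to 7.97 against 3.40 and 3.25, and the replication licensing factor dup at 8.79 to 10.14, with the brighter of the pair at 5.59. Of the APC/C and its activators this held for 10 of 13, beside the same shares, with the subunit APC7 at 6.92 to 7.59 against 2.11 and 2.36. The subunit Cdc16 gave 7.55 to 8.31 against 6.11 and 5.82. Genes that act in spermatocytes at the entry into meiosis were the reverse, with 7 of 8 higher on the pair by their brightest probe sets, beside 17.4% of all probe sets as deposited and 12.9% with a common median. Beside bol and Rbp4 these were sa (6.53 and 7.29 against 2.49 to 2.91), topi (5.95 and 5.98 against 2.89 to 3.25), can (4.36 and 5.46 against 1.66 to 2.27), mia and tomb.

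**Figure D4:**
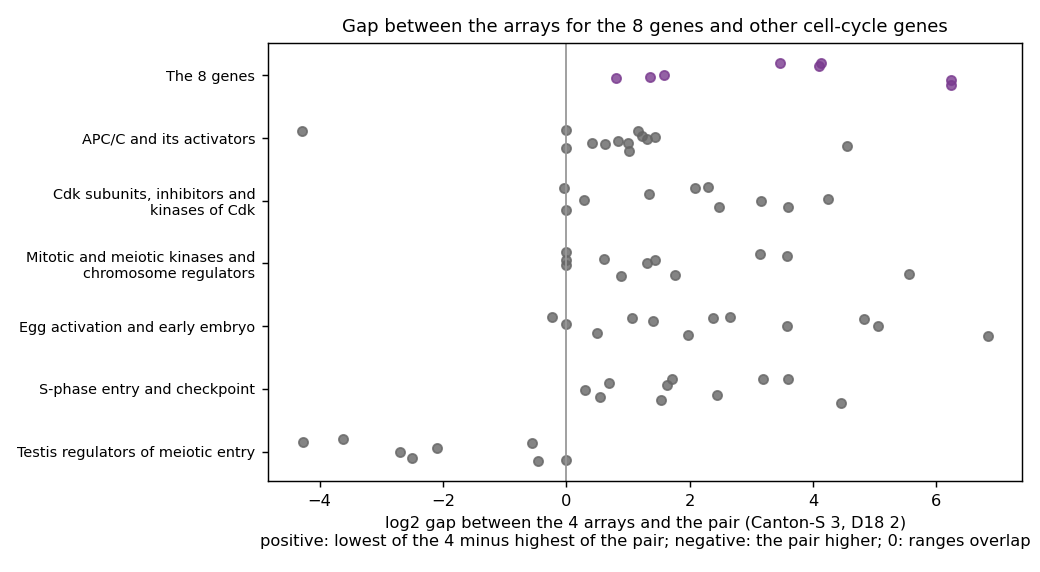
Gap on the log2 scale (horizontal axis) between the 4 arrays and the pair for each of the 8 genes and for 64 other cell-cycle genes by group, with 1 point per gene. Values above 0 are the lowest of the 4 minus the highest of the pair, values below 0 mean that the pair was higher, and 0 marks ranges that overlap. The 8 genes run from 0.80 to 6.24, and 7 of 8 spermatocyte genes lie below 0. Genes with several probe sets are shown by the brightest.

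The median profile of the 8 genes over the 6 arrays was most like those of CG1074, Med and Marf1 among probe sets that name 1 gene, with Pearson correlations of 0.99962, 0.99959 and 0.99954. These are over 6 arrays that fall into 2 clusters, and 26.8% of the 13639 probe sets compared had a correlation over 0.9. Marf1 had 9.92 and 10.71 on Canton-S replicates 1 and 2, 11.22 and 11.11 on D18 replicates 1 and 3, and 5.57 and 5.50 on the pair. For Med the signal ran only from 5.52 to 6.09 over the 6 arrays.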

How the data were processed

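GeneChip Drosophila Genome arrays were scanned and processed by the authors with the RMA algorithm at default parameters, a joint background correction and normalization that gives 1 log2 value per probe set. The deposited log2 values were used as they are. Of 18952 probe sets 183 controls were left out. Gene names came from the platform annotation, updated to the symbols of the Release 6 assembly: 13647 name 1 gene, 402 several and 4720 none. The array was designed on an earlier release, so no coordinates are given. A gene with several probe sets was counted by the brightest. The strain model was fitted with lmFit and eBayes of limma 3.58.1 under R 4.3.3, and p were adjusted by Benjamini-Hochberg over 18769 probe sets. The fit was run on simulated data as a check of the estimated strain difference, not of how many changes the main test finds. Each array is a separate biological repeat, p-values rest on the spread between these repeats, and their number limits the precision. With strain as the only factor this spread includes the split between the pair and the other 4 arrays. The variance in limma also draws on all probe sets. RMA gives no detection call, so the lower quartile of an array serves as a mark of low signal.

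The genes, the lists and the alternatives were chosen with earlier results of these data known. From the lists, genes were named where they passed the thresholds between strains, were among the 3 with the widest gap in their group, or were higher on Canton-S replicate 3 and D18 replicate 2, and the 3 genes most like the median profile were named. The alternatives were a replicate block, a block for that pair of arrays, leaving the pair out, quantile normalization, a shift to a common median, a filter that removed the dimmest 40% of probe sets, an intensity trend, no moderation, and leaving out each array. The RNA of both strains was extracted together, with a week between the repeats, but the labels do not tie the replicate numbers to the repeats. Python 3.11.15, with pandas 2.3.3, numpy 2.4.6 and matplotlib 3.10.9, made the tables and plots. Sequences, qRT-PCR and phenotypes were not analysed here.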

Additional observations from a re-analysis of the deposited data

How the results depend on the processing

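Of the 8 genes 0 passed the thresholds under each alternative, and all 8 stayed higher on the 4 arrays than on the pair with quantile normalization and a common median. The filter on dim probe sets removed none of the 8 and changes no value, so it is no check of this order. Both blocks, the filter on dim probe sets, the intensity trend and no moderation leave the difference of a gene as it is, so they cannot change its sign. The settings that could move it with no single array left out were quantile normalization, the common median and the fit without the pair. These kept the sign for each gene. When 1 array was left out the difference ran from -0.50 to 1.78 for png, -2.07 to 1.08 for plu, -2.83 to 1.75 for gnu, -2.09 to 0.68 for cort, -2.72 to 1.90 for CycB and -2.35 to 1.07 for CycE, and CycB3 and twe kept their sign. Over all probe sets 239 passed, with 92 under the replicate block, 447 with a block for the pair, 514 without the pair, 121 with a common median, 157 without moderation, 7 at an adjusted p under 0.05, and 130 to 297 when 1 array was left out. Deviations from the strain means correlated between arrays of the same number at 0.777, -0.93 and -0.861 for numbers 1, 2 and 3, values that follow from where the pair lies, at number 3 in Canton-S and number 2 in D18, so they cannot tell whether the numbers pair the samples. The replicate block changed no call of the 8 genes. The median difference of all probe sets moved from -0.05 to -0.22 with a common median and that of the 8 genes from -0.48 to -0.64. The cause of these changes was not tested.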

Other observations

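Of the 64 other cell-cycle genes, 8 had overlapping ranges on the pair and the other 4 arrays, and they were named after their values were seen. Their 4 arrays and the pair were at 7.55 to 8.04 and at 8.10 and 7.98 for the APC/C subunit Cdc27, at 7.31 to 7.80 and at 7.09 and 7.51 for the subunit mr, and at 9.10 to 9.63 and at 9.44 and 9.63 for endos, the substrate of Greatwall kinase. The calcineurin regulator sra, which is required for egg activation, was at 9.09 to 9.49 on the 4 arrays and 9.05 and 9.16 on the pair. Cks85A, tws, mei-S332 and aly were the others. For aly, a regulator of the spermatocyte program, the signal was 1.77 to 2.35 on all 6 arrays, below the lower quartile of each.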
